A study of Mus musculus with 12 samples.

Results

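The comparison described here is calcitriol against vehicle in colonic organoids of wild-type mice. It rests on 6 of the 12 arrays of the study, the 3 wild-type vehicle and the 3 wild-type calcitriol arrays, which were taken by their titles and paired by mouse number. Colonic organoids are crypt epithelium grown in Matrigel, here as a culture rich in stem cells, and each was set up from 1 mouse of strain C57BL/6. The vehicle was EtOH, and the hormone, 1,25(OH)2D3 or calcitriol, was used at 100 nM and renewed every 48 h with the medium. The treatment lasted 62 h by the sample descriptions and 72 h by the design text. Mice 1 and 3 were 2 months old and mouse 2 was 3 months old. The other 6 arrays are cultures of 3 VDR KO mice, in which the vitamin D receptor gene is knocked out, of the same strain, ages and treatments, and they serve below only to set each response beside its value without the receptor. All 12 cultures were grown in the same way, as epithelium without other tissue, and each mouse contributed 1 vehicle and 1 calcitriol array.

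Calcitriol is the active form of vitamin D. It binds the vitamin D receptor (VDR), which pairs with a retinoid X receptor and binds pairs of short DNA half-sites near its target genes. In the intestine this pathway is best known for switching on calcium uptake, through a channel at the apical membrane, a binding protein in the cytoplasm and a pump at the basal membrane, and for switching on the enzyme that breaks the hormone down again.

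Each level below is a log2 processed signal relative to the 75th percentile of its array, and values for mice 1, 2 and 3 are given in that order. A gene is called where the limma adjusted p over all 24246 genes tested, with mouse as a block, was under 0.05. A level compares arrays for 1 probe, not 1 gene with another.

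Several features of the arrays bear on all values. Slide and treatment overlapped: the vehicle arrays of mice 1 and 2 lay on 1 slide, and the vehicle array of mouse 3 and all 3 calcitriol arrays lay on another. Mouse 3 alone therefore gives a difference within 1 slide, and in a fit with both slide and mouse the effect is that of mouse 3. In knockout no mouse had both of its arrays on 1 slide. The vehicle array of mouse 2 had 72.8% of its spots over background, where the remaining 5 had 56.4% to 65.9%. The lowest signal called above background was also higher on the vehicle arrays of mice 2 and 3 than on the rest. Y-linked Eif2s3y was at 2.83 and 2.92 on the 2 arrays of mouse 2, labelled female, and Xist was at 1.56 and 1.58 on those of mouse 1, labelled male. The labelled sexes of mice 1 and 2 are thus contradicted, but both arrays of each mouse matched, and the labelled sex entered no test. Vdr itself, by a probe that may or may not lie within the deletion, was measured at 1.13, 1.66 and 2.01 in vehicle and 1.07, 0.81 and 1.18 in calcitriol, above the 6 knockout arrays at -0.43 to 0.36, with a difference of -0.58 (SE 0.16, adjusted p = 0.259) that did not pass.

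The cultures carried the markers of colonic epithelium. All 17 pan-epithelial and colon identity markers were well above background on all 6 arrays, and their summed signal on the log2 scale was 10.2 to 10.5 in vehicle and 10.3 to 10.5 in calcitriol. Of 20 immune markers 7 were above background on all 6 arrays, with sums of 3.84 to 4.45 in vehicle and 4.28 to 4.84 in calcitriol, and Cpa3 and Fcer1a were above it on none. Of 16 fibroblast and muscle markers 5 were above background on all 6 arrays, with sums of 2.78 to 2.93 and 2.45 to 2.82, and Lum and Pdgfra were above it on none. Of 16 endothelial, neural and glial markers 6 were above background on all arrays, with sums of 3.05 to 4.17 in vehicle and 3.84 to 4.11 in calcitriol, and Cdh5, Tek, S100b and Uchl1 were among those above it on none. None of these 4 lists had a called gene by limma (at unadjusted p under 0.05 there were 3, 1, 1 and 0), and their part in the results was not tested. The median difference was 0.355 over the 10 tested immune genes (7 above 0) and 0.317 over the 9 tested endothelial, neural and glial genes (7 above 0), higher than those of the goblet and interferon lists given further on. In knockout these medians were 0.559 and 0.464, and on the largest slide alone they were -0.00107 and -0.00619 in wild type. In such cultures more cells of one type and more RNA per cell cannot be told apart.

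Calcitriol changed 234 of 24246 genes, or 0.965%, and rises outnumbered falls. Of these, 162 rose (0.668% of genes tested) and 72 fell (0.297%), and each moved the same way in all 3 mice, as a test of paired differences favours. The median rise was 1.01 and the median fall was -0.86 on the log2 scale, and 82 rises and 28 falls reached 2-fold. Rises were therefore larger as well as more frequent. They included dim genes such as Cbln1 (mean of -6.13 in vehicle) and bright ones such as Adh1 (mean of 5.33 in vehicle). Among all genes tested the median difference was -0.0261 and 44.8% lay above 0, which is the background for the gene lists below. The background for their counts of called genes is the 0.668% higher and 0.297% lower of all genes. For counts at unadjusted p under 0.05 it is 9.99% of all genes. In 75 of the 234 called genes the 2 groups of 3 arrays still overlapped, while 2156 genes (8.89% of those tested) had groups apart whether called or not. Without the mouse block 39 genes were called, 37 higher (0.153%) and 2 lower (0.00825%), of which 38 were among the 234. Of the 234 calls 40 were kept whichever mouse was left out, and 138 were lost whichever was. After normexp, another background correction, 15 of the 70 called genes named here changed by a fold over 1.5 times smaller. They include Trpv6 (3.84), Spon2 (2.95), Mptx1 (2.30), Trim47 (2.17), Uox (-0.86) and Btnl1 (-0.93), and the other 9 have their values below. Scaling by the array median gave 534 higher and 113 lower, and the fit with slide and mouse gave 62 higher and 54 lower, so the share of rises was 69.2% as reported against 82.5% and 53.4%. Of the 234 calls 105 were among the 647 made under median scaling, and 69 were among the 116 made with slide and mouse. Median scaling also moved the median of all genes to 0.44, so a rise or fall here is relative to the 75th percentile of each array.

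**Figure D1:**
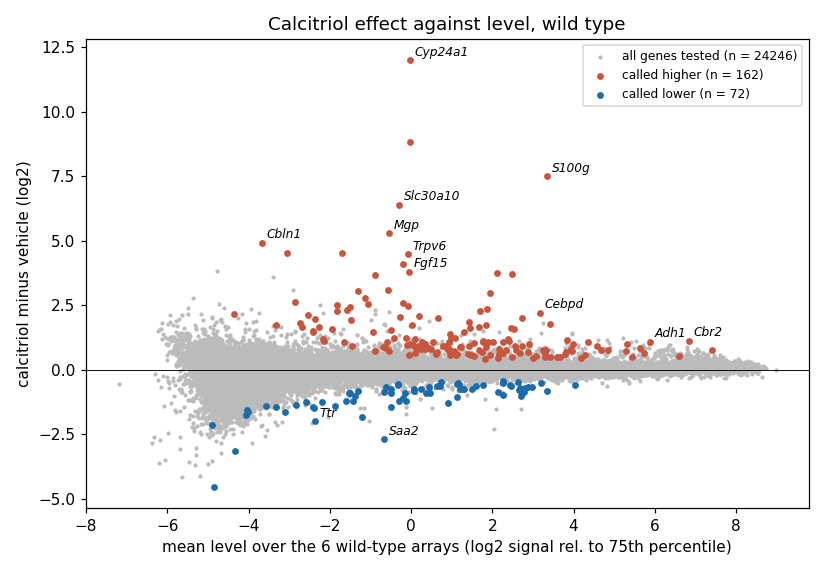
Calcitriol minus vehicle (log2) against the mean level over the 6 wild-type arrays (log2 signal relative to the 75th percentile) for the 24246 genes tested, 1 point a gene. The 162 genes called higher reach 12 at Cyp24a1 and the 72 called lower are fewer and nearer to 0.

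The strongest response was that of the hormone's own breakdown enzyme. Cyp24a1, the 24-hydroxylase that inactivates calcitriol, lay at -7.48, -6.47 and -4.13 on the vehicle arrays, against 5.59, 5.88 and 6.45 with calcitriol. It was above background on 1 of 3 vehicle arrays and on all 3 calcitriol arrays, and the groups lay far apart. It rose by 12 (SE 0.54, n = 3 mice, adjusted p = 0.000165). With each array's dim signal raised to its limit of detection the rise was 10.52, or 1468-fold, and after normexp it was 9.02, or 521-fold, so the size depends on how the dim vehicle arrays are treated.

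Among the other 5 tested genes of vitamin D hydroxylation and carriage 1 rose. Cubn, which encodes cubilin, an endocytic receptor that takes up the vitamin D binding protein in the kidney and vitamin B12 in the ileum, was at 1.97, 0.44 and 0.56 in vehicle and 3.49, 2.21 and 2.46 in calcitriol. The groups did not overlap, and mouse 1 was the highest in both. The rise was 1.73 (SE 0.09, adjusted p = 0.000296) and was missed without the block (adjusted p = 0.643). Cyp2r1, the 25-hydroxylase, differed by 0.57 (adjusted p = 0.633). Cyp27b1, which makes calcitriol, was not above background on any vehicle array and was near that limit in calcitriol, and it gave no fold. None of the 19 tested genes of the receptor complex was called by limma (3 at unadjusted p under 0.05, beside 9.99% of all genes), and the median difference was -0.05. In that group Rxra, the partner receptor, differed by -0.23 (SE 0.18, adjusted p = 0.633), and Hr, a VDR corepressor, by -0.53 (adjusted p = 0.272).

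Genes of calcium absorption rose at each step of the route through the cell. Of 12 tested 5 rose and 1 fell, with a median difference of 0.26, beside 0.965% called among all genes. S100g, the cytoplasmic calcium-binding protein calbindin-D9k, was at -0.34, -0.71 and -0.15 in vehicle and 7.10, 6.93 and 7.27 in calcitriol. The 3 mice lay within 0.57 of each other in vehicle and within 0.34 in calcitriol, and S100g rose by 7.5 (SE 0.12, adjusted p = 5.03e-07), or 181-fold. Trpv6, the apical calcium channel, was at -1.74, -2.0 and -3.17 in vehicle and 2.93, 1.22 and 2.35 in calcitriol. Mouse 2 had the lowest treated level, and the rise was 4.47 (SE 0.38, adjusted p = 0.00261). Atp2b1, the plasma membrane pump that carries calcium out at the basal side, was at 1.59, 1.62 and 1.71 in vehicle and 3.25, 3.12 and 3.44 in calcitriol. It was the steadiest of these genes among mice in vehicle, and it rose by 1.63 (SE 0.08, adjusted p = 0.000239), or 3.1-fold.

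Smaller changes were seen elsewhere in calcium handling. Cldn15, a claudin that forms cation pores between cells, rose by 0.82 (SE 0.12, adjusted p = 0.0232), and Stim1, the calcium sensor of the endoplasmic reticulum, by 0.78 (SE 0.08, adjusted p = 0.00576). Both calls were lost without mouse 1 and without mouse 2, at adjusted p up to 0.234 and 0.08. Pthlh, the parathyroid hormone-related protein, was the member that fell: it was at -1.88, -1.36 and -2.69 in vehicle and -2.81, -3.18 and -3.65 in calcitriol. Its groups did not overlap, and it fell by 1.24 (SE 0.21, adjusted p = 0.0492, up to 0.182 with a mouse left out). Of the members that did not pass, Cldn2, another cation claudin, differed by 0.19 (adjusted p = 0.603) and the sodium-calcium exchanger gene Slc8a1 by -0.72 (adjusted p = 0.652).

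**Figure D2:**
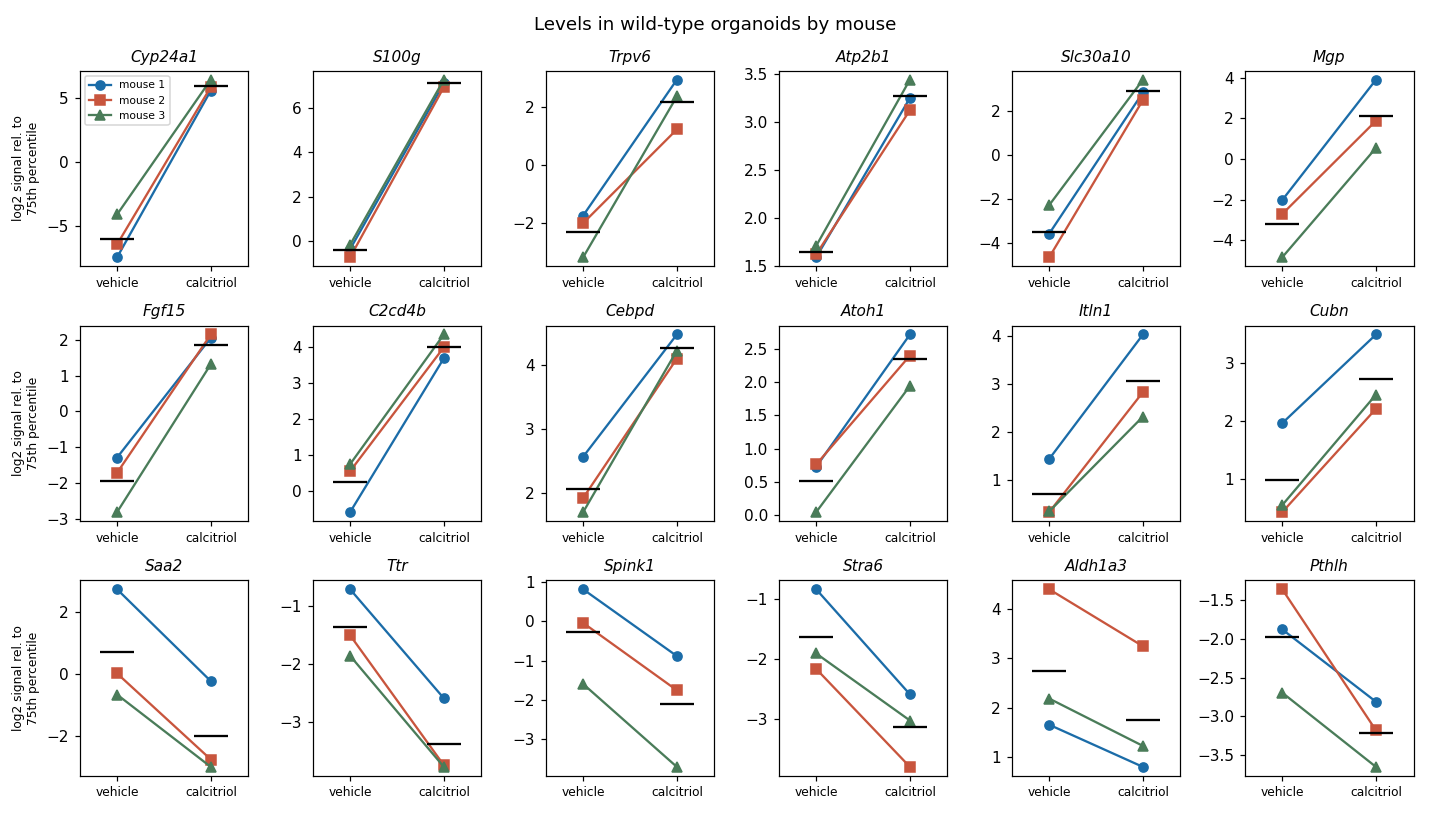
Levels (log2 signal relative to the 75th percentile of the array) of 18 genes in vehicle and calcitriol, 1 line a wild-type mouse, black bars at the group means, and a separate scale in each panel. The upper 12 genes rose and the lower 6 fell in all 3 mice, and in Saa2, Spink1 and Aldh1a3 the groups overlap although each mouse falls.

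Transporters of manganese and zinc were the other mineral genes that rose, 2 of 21 tested for phosphate, sulphate, magnesium and trace metals. Of all genes 0.668% rose. Slc30a10, which exports manganese, was at -3.56, -4.63 and -2.27 in vehicle and 2.83, 2.49 and 3.41 in calcitriol, and was above background on 2 of 3 vehicle arrays. The treated mice were close to each other, the vehicle mice were not, and the rise was 6.40 (SE 0.28, adjusted p = 0.000164, 0.0884 without the block) and 5.27 after normexp. Slc39a8, which imports manganese and zinc, was at 0.61, 1.01 and 0.95 in vehicle and 2.33, 2.54 and 2.60 in calcitriol. Its mice differed little within each group, and it rose by 1.64 (SE 0.09, adjusted p = 0.000294). They were the single called members among 8 tested Slc30a and 13 tested Slc39a genes. The sulphate transporter gene Slc26a2 differed by -0.54 (adjusted p = 0.185) and Slc40a1, the iron exporter ferroportin, by -0.48 (adjusted p = 0.228).

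Of 9 tested regulators of mineralization 2 rose, beside 0.668% of all genes. Mgp, the matrix Gla protein that inhibits calcification, was at -2.01, -2.70 and -4.83 in vehicle and 3.90, 1.88 and 0.55 in calcitriol. Mice kept their order under treatment, from mouse 1 at the top to mouse 3 at the bottom, and Mgp rose by 5.29 (SE 0.32, adjusted p = 0.000527, 0.0988 without the block), or by 4.33 after normexp. Ank, a pyrophosphate transporter that also restrains mineral, rose by 0.62 (SE 0.09, adjusted p = 0.0232). Its call was kept in 1 of 3 fits with a mouse left out (adjusted p up to 0.215). Spp1, the matrix protein osteopontin, differed by -0.99 (adjusted p = 0.375) and the bone hormone gene Fgf23 by 0.50 (adjusted p = 0.585).

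Fgf15, the gut hormone that lowers bile acid synthesis in the liver, was the called member of 9 tested bile acid genes. It was at -1.29, -1.72 and -2.81 in vehicle and 2.06, 2.15 and 1.32 in calcitriol, above background on all 6 arrays with the groups well apart. The rise was 3.79 (SE 0.19, adjusted p = 0.000239), or 13.8-fold. Slc51a, a subunit of the basal bile acid exporter, differed by -1.02 (adjusted p = 0.512) and the pump gene Abcc2 by 0.92 (adjusted p = 0.351).

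Of 25 xenobiotic enzymes and pumps 2 rose and 1 fell, beside 0.668% and 0.297% of all genes. Ugt2b35, a glucuronosyltransferase, was at -0.91, -2.28 and -3.20 in vehicle and 1.43, 0.86 and 0.62 in calcitriol and rose by 3.10 (SE 0.27, adjusted p = 0.00298). Its neighbour Ugt2b34 rose by 0.78 (SE 0.08, adjusted p = 0.00507) with overlapping groups. Probes of such close relatives may share signal, since probe sequences were not used here. Sult1a1, a phenol sulphotransferase, was at 0.92, -0.21 and -0.02 in vehicle and -0.49, -1.99 and -1.16 in calcitriol and fell by 1.44 (SE 0.18, adjusted p = 0.0141, up to 0.137 with a mouse left out). The drug-metabolizing Cyp3a11, a VDR target in small intestine, differed by 0.50 (adjusted p = 0.776), and the carboxylesterases Ces2a and Ces2c by 1.18 (adjusted p = 0.139) and 0.44 (adjusted p = 0.137).

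Of 31 tested genes on the list of phospholipid, fatty acid and sterol enzymes Pla2g7, Gdpd5 and Ppard, 3 in all, rose and none fell, and the list median difference of -0.0016 was near that of all genes. Pla2g7, which inactivates platelet-activating factor, was at -3.91, -3.25 and -4.72 in vehicle and 1.30, 0.62 and -0.26 in calcitriol. All treated mice lay above all vehicle mice, 2 of the vehicle arrays were above background, and the rise was 4.52 (SE 0.27, adjusted p = 0.000527), or 3.15 after normexp. Gdpd5, a glycerophosphodiester phosphodiesterase, was at 0.70, 0.42 and 0.56 in vehicle and 2.96, 2.78 and 2.76 in calcitriol. Mice were within 0.28 of each other in either group, and it rose by 2.27 (SE 0.07, adjusted p = 2.91e-05). Ppard, a nuclear receptor for fatty acids, rose by 0.49 (SE 0.08, adjusted p = 0.0464), a call lost whichever mouse was left out. Mgll, the monoacylglycerol lipase, was at -6.12, -3.89 and -5.58 in vehicle and -1.03, -1.04 and -2.70 in calcitriol, above background on 1 vehicle array, and its difference of 3.60 did not pass (SE 0.64, adjusted p = 0.0574). Gdpd2, a relative of Gdpd5, differed by 1.1 (adjusted p = 0.108).

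A look at gene families, made after the values were seen, found 4 of 16 tested Pla2g genes called higher, where 0.668% of all genes were, and none lower. The secreted phospholipases Pla2g3, Pla2g5 and Pla2g2f rose by 2.50, 1.61 and 1.54 beside Pla2g7, and the 3 vehicle levels of Pla2g3, at -2.75, -2.35 and -4.14, lay below its treated levels of -0.29, -0.41 and -1.04. The call of Pla2g3 was lost whichever mouse was left out and without the block (adjusted p up to 0.105 and 0.0741), and its rise after normexp was 1.70. Those of Pla2g5 and Pla2g2f were lost in 1 of 3 leave-outs. Both tested C2cd4 genes rose. C2cd4b was at -0.58, 0.55 and 0.75 in vehicle and 3.68, 3.98 and 4.34 in calcitriol and rose by 3.76 (SE 0.16, adjusted p = 0.000127). C2cd4a was at -2.0, -1.07 and -1.38 and 0.84, 1.11 and 1.38 and rose by 2.60 (SE 0.16, adjusted p = 0.000527). The pair lies side by side on chromosome 9, both groups were apart for both genes, and both calls held with any 1 mouse left out.

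Genes of the secretory lineage were among those that rose. Of 32 tested goblet and deep crypt secretory genes 8 rose and 2 fell, beside 0.668% and 0.297% of all genes. Of the 32, 24 lay above 0, and the median difference was 0.22 against -0.0261 over all genes, or 0.69 against 0.44 under median scaling. Atoh1, a transcription factor required for secretory fates in the crypt, was at 0.73, 0.76 and 0.05 in vehicle and 2.72, 2.40 and 1.95 in calcitriol. The groups did not overlap, and Atoh1 rose by 1.84 (SE 0.10, adjusted p = 0.00034), or 3.58-fold. Itln1, a lectin that binds microbial sugars, was at 1.43, 0.32 and 0.33 in vehicle and 4.04, 2.83 and 2.32 in calcitriol and rose by 2.37 (SE 0.15, adjusted p = 0.000527). Mptx1, the mucosal pentraxin, was at -2.71, -1.87 and -3.89 and 1.20, -0.14 and -0.39 and rose by 3.04 (SE 0.40, adjusted p = 0.0164). For both, mouse 1 was highest under treatment, and the call of Mptx1 was lost in 2 of 3 leave-outs. Best2, an anion channel of colonic goblet cells, was at 0.07, -0.89 and -1.68 in vehicle and 1.71, 0.85 and 0.14 in calcitriol and rose by 1.73 (SE 0.14, adjusted p = 0.00185). Bcas1 rose by 1.22 (SE 0.11) and Rep15 by 0.92 (SE 0.09), with adjusted p of 0.00398 and 0.00576.

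Of secreted goblet cell products Tff3 and Spink4 rose and Muc2 did not pass. Tff3, the trefoil peptide that protects the mucosa, was at 6.06, 5.36 and 4.82 in vehicle and 6.61, 6.08 and 5.47 in calcitriol and rose by 0.64 (SE 0.07, adjusted p = 0.00901) with overlapping groups. Spink4, a protease inhibitor of goblet cells, rose by 0.91 (SE 0.12, adjusted p = 0.0161), also with overlapping groups. Muc2, the main gel-forming mucin, was at 2.12, 2.22 and 1.60 and 2.31, 2.57 and 2.09, a difference of 0.34 (SE 0.17, adjusted p = 0.553) that did not pass. The goblet cell factor Spdef differed by 0.48 (adjusted p = 0.0542), and Kit and Ccl6, marks of deep crypt secretory cells, by 0.87 (adjusted p = 0.112) and -0.87 (adjusted p = 0.0574). Other members moved the other way: Reg4, a lectin-like secreted protein of deep crypt secretory cells, was at 2.35, 2.08 and 1.19 and 1.72, 1.52 and 0.18 and fell by 0.73 (SE 0.10, adjusted p = 0.0192), and Bace2, a membrane protease, fell by 0.58 (SE 0.07, adjusted p = 0.0141). On the 7 arrays of the largest slide alone the difference of Bace2 was 0.18, the opposite direction. Of these 10 called genes Atoh1, Itln1 and Best2 kept their call whichever mouse was left out, and Tff3, Spink4, Reg4 and Bace2 lost it whichever was left out.

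Neurog3, which commits cells to the enteroendocrine fate, was the called member of 27 enteroendocrine genes and, with Atoh1, 1 of 2 among 20 Notch pathway genes. It was at 1.07, 1.57 and 1.01 in vehicle and 2.36, 2.60 and 2.08 in calcitriol, with the groups apart, and rose by 1.13 (SE 0.10, adjusted p = 0.00326). Genes of later endocrine cells did not pass: Insm1 differed by 0.51 (adjusted p = 0.0754), Rfx6 by 1.56 (adjusted p = 0.121) and Chga, the granule protein chromogranin A, by 0.52 (adjusted p = 0.343). Hes1, the Notch target that represses Atoh1, was at -0.16, 0.16 and -0.13 in vehicle and -0.05, 0.27 and -0.56 in calcitriol, with a difference of -0.07 (SE 0.20, adjusted p = 0.893). Its relatives in the pathway Mfng and Jag1 differed by -0.94 (adjusted p = 0.15) and -0.40 (adjusted p = 0.232). None of 11 tested tuft cell genes was called by limma (2 at unadjusted p under 0.05, median -0.53 in wild type and 0.56 in knockout), with Il25 at -1.69 (adjusted p = 0.331), Ptgs1 at -0.92 (adjusted p = 0.447) and Dclk1 at -0.53 (adjusted p = 0.754). Of 4 tested Paneth genes Itln1 was called, while Mmp7 differed by 0.51 (adjusted p = 0.0685) and Lyz1 by -0.56 (adjusted p = 0.399).

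Genes that handle retinoids, the vitamin A compounds, changed in both directions. Of 25 tested retinoid and alcohol genes 2 rose and 3 fell, beside 0.668% and 0.297% of all genes, with a list median of -0.09. The rises were alcohol dehydrogenases, which can oxidize retinol. Adh6a was at 1.05, 0.07 and 0.26 in vehicle and 3.88, 3.16 and 3.22 in calcitriol and rose by 2.96 (SE 0.09, adjusted p = 2.91e-05), and Adh1 was at 5.62, 5.05 and 5.34 and 6.84, 6.15 and 6.28 and rose by 1.09 (SE 0.10, adjusted p = 0.00372). The mice ranked alike in both genes, with mouse 1 highest. The falls lie at retinol uptake and at the step from retinaldehyde to retinoic acid. Stra6, a receptor that takes up retinol, was at -0.84, -2.17 and -1.91 in vehicle and -2.60, -3.81 and -3.03 in calcitriol and fell by 1.5 (SE 0.18, adjusted p = 0.0119). Aldh1a3, a retinaldehyde dehydrogenase, was at 1.65, 4.40 and 2.18 and 0.80, 3.25 and 1.22 and fell by 0.99 (SE 0.10, adjusted p = 0.00637). Mouse 2 carried far more Aldh1a3 than the others in both groups, so the groups overlapped while all 3 mice fell. Aldh1a1, of the same family, fell by 0.65 (SE 0.11, adjusted p = 0.0492). Aldh1a7, another relative, did not pass, at -0.75 (adjusted p = 0.0642). All 3 falls were lost without the block, at adjusted p of 1, and with at least 1 mouse left out.

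Acute phase and defence genes changed in both directions. Of 24 tested 2 rose and 4 fell, beside 0.668% and 0.297% of all genes. The list median was -0.29 and 6 lay above 0. Saa2, a serum amyloid A protein made in inflammation, was at 2.74, 0.01 and -0.67 in vehicle and -0.24, -2.77 and -3.01 in calcitriol. Mouse 1 started far above the others and the groups overlapped, but all 3 mice fell by over 2 on the log2 scale, by 2.70 on average (SE 0.17, adjusted p = 0.000555). Its relative Saa1 was at 3.16, 0.49 and 0.17 and 0.63, -0.56 and -0.75, a difference of -1.5 (SE 0.30, adjusted p = 0.0842) that did not pass. Ttr, transthyretin, which carries thyroxine and the retinol-binding protein, was at -0.71, -1.5 and -1.85 in vehicle and -2.58, -3.74 and -3.77 in calcitriol and fell by 2.01 (SE 0.14, adjusted p = 0.000808). Spink1, a trypsin inhibitor, was at 0.80, -0.05 and -1.60 and -0.89, -1.75 and -3.70 and fell by 1.83 (SE 0.14, adjusted p = 0.00148). Saa2, Ttr and Spink1, with Gsta3 below, were the 4 falls that stayed called whichever mouse was left out. None of the 4 was called without the block, at adjusted p of 0.349 for Ttr and 1 for the other 3.

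Tlr2, which senses bacterial lipoproteins, was at 0.69, 0.80 and 0.83 in vehicle and 0.10, 0.05 and 0.21 in calcitriol and fell by 0.66 (SE 0.08, adjusted p = 0.0161), a call lost whichever mouse was left out. The rises were antimicrobial secreted proteins. Slpi, an inhibitor of neutrophil elastase, was at 2.84, 2.28 and 0.02 and 4.12, 4.16 and 2.92 and rose by 2.02 (SE 0.27, adjusted p = 0.0188), with mouse 3 lowest in both groups. Ltf, the iron-binding lactoferrin, was at -2.13, -2.96 and -4.41 and -0.75, -1.77 and -2.48 and rose by 1.5 (SE 0.23, adjusted p = 0.0347). Its groups overlapped, and the call was lost whichever mouse was left out (adjusted p up to 0.219). The inducible nitric oxide synthase gene Nos2 differed by -0.76 (adjusted p = 0.0839).

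Of 27 NF-kB targets and chemokines 1 rose, and 3 lay above 0 (median -0.24). Nfkbia, the inhibitor that holds NF-kB in the cytoplasm, was at 5.14, 5.16 and 5.32 in vehicle and 5.49, 5.73 and 5.82 in calcitriol and rose by 0.47 (SE 0.07, adjusted p = 0.0347). This call and that of Ddx58 below were lost whichever mouse was left out. The subunit gene Relb differed by -0.44 (adjusted p = 0.0522) and the chemokine gene Cxcl5 by -0.83 (adjusted p = 0.0889), neither of which passed. Interferon-stimulated genes leaned the other way, with 22 of 27 above 0 and a median of 0.19, yet 1 was called: Ddx58, the RNA sensor RIG-I, rose by 0.57 (SE 0.07, adjusted p = 0.0143), while Isg15 differed by 0.62 (adjusted p = 0.0834) and Oas2 by 0.86 (adjusted p = 0.275). Under median scaling, where all genes lay at 0.44, the median was 0.23 for the NF-kB list, 0.18 for the defence list and 0.66 for the interferon list, so the sign of the first 2 turned while their side of the median of all genes did not. H2-Q1, a class I antigen gene, was at 1.34, -0.25 and 0.79 in vehicle and 4.59, 3.92 and 4.52 in calcitriol and rose by 3.71 (SE 0.19, adjusted p = 0.000239). It was the 1 called gene of 23 for antigen presentation and of 17 tested class I genes with an H2 symbol. Class I genes under other symbols were not counted. Class I genes are near-identical in sequence, so the signal of H2-Q1 may come in part from relatives. Of class II genes Cd74 differed by -1.1 (adjusted p = 0.142) and H2-Ab1 by -0.40 (adjusted p = 0.457).

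Among transcription factors of the C/EBP and immediate early groups 1 of 24 rose and 1 fell. Cebpd, a C/EBP factor, was at 2.57, 1.92 and 1.70 in vehicle and 4.47, 4.10 and 4.22 in calcitriol, so the treated mice drew together from a wider spread. It rose by 2.20 (SE 0.11, adjusted p = 0.000239), or 4.6-fold. Egr1, an early growth response factor, fell by 0.46 (SE 0.07, adjusted p = 0.0422). The call was lost whichever mouse was left out, and under median scaling its difference was 0.01, the opposite direction. Klf4 and Ier2 differed by -0.26 (adjusted p = 0.187) and -0.33 (adjusted p = 0.26). Of 16 epidermal and squamous genes 2 rose. Klk11, a secreted serine protease, was at -6.64, -4.75 and -4.59 in vehicle and 0.10, -0.44 and -2.02 in calcitriol, above background on 1 vehicle array, and rose by 4.54 (SE 0.76, adjusted p = 0.0464). After normexp the rise was 2.45, and the call was lost with any 1 mouse left out. Tgm2, a crosslinking transglutaminase, rose by 0.91 (SE 0.13, adjusted p = 0.0241) with overlapping groups. Its call was kept in 1 of 3 leave-outs (adjusted p up to 0.186). Sprr1a and Cnfn, of the cornified envelope, differed by -0.49 (adjusted p = 0.0874) and 0.54 (adjusted p = 0.177).

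The remaining large rises belong to no list. Cbln1, a secreted protein of synapses, was at -6.82, -4.82 and -6.75 in vehicle, where no array was above background, and at -0.13, -1.29 and -2.19 in calcitriol, which makes it at least 11.6-fold higher against the lowest signal above background (adjusted p = 0.0191, up to 0.135 with a mouse left out). That bound holds for the signals as deposited: after normexp the rise was 1.99, or 3.96-fold. Spon2, an extracellular matrix protein, was at -2.32, -2.25 and -3.61 and 2.36, 0.72 and -0.19 and rose by 3.69 (SE 0.30, adjusted p = 0.00185). Trim47, of the tripartite motif family, was at -2.62, -2.83 and -2.10 and 0.09, 0.75 and -0.05 and rose by 2.78 (SE 0.26, adjusted p = 0.00418). In each of these 3 genes all treated mice lay above all vehicle mice. Ttyh1, an anion channel protein, was at -4.99, -3.10 and -4.42 and -1.96, -1.23 and -1.42 and rose by 2.63 (SE 0.31, adjusted p = 0.0123). It was above background on 2 vehicle arrays, its rise after normexp was 1.37, and its call was lost in 2 of 3 leave-outs (adjusted p up to 0.119) and without the block (0.0962). The named rises left out transcripts without a gene symbol, of which 31 were called. Chosen after its values were seen, the largest was AK017151, at -4.90, -4.08 and -4.38 in vehicle and 4.59, 4.26 and 4.29 in calcitriol, a rise of 8.83 (SE 0.71, adjusted p = 0.00185), second to Cyp24a1 among all genes, and 7.14 after normexp. The largest fall, likewise, was ENSMUST00000066583, which was above background on all 3 vehicle arrays and on no calcitriol array and was at least 9.28-fold lower, or 2.66-fold lower after normexp. The call of this transcript was lost whichever mouse was left out (adjusted p up to 0.121).

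Of the 15 largest falls with a symbol, 9 have not been described above. Olfr828, an olfactory receptor gene, was at -3.81, -2.21 and -2.29 in vehicle and -6.67, -5.62 and -5.46 in calcitriol and fell by 3.15 (SE 0.44, adjusted p = 0.0208), and 2 of 3 treated arrays were above background. After normexp the fall was -1.28, so its size rests on dim signals. Uox, the urate oxidase, was at -3.42, -2.37 and -3.81 and -5.03, -4.60 and -5.23 and fell by 1.75 (SE 0.28, adjusted p = 0.0397). Btnl1, a butyrophilin-like protein through which gut epithelium supports intraepithelial T cells, was at -3.96, -3.62 and -1.97 and -5.18, -5.32 and -3.98 and fell by 1.65 (SE 0.28, adjusted p = 0.0494). Ms4a18 was at -1.37, -1.82 and -1.86 in vehicle and -2.77, -3.37 and -3.26 in calcitriol and fell by 1.45 (SE 0.15, adjusted p = 0.00653). It was the 1 of these 15 falls that was called also without the block (adjusted p = 0.0243). Rtn4rl1, a Nogo receptor relative, was at -0.99, -1.03 and -1.48 and -2.18, -2.84 and -2.66 and fell by 1.39. Cst6, a cysteine protease inhibitor, was at -1.31, -0.85 and -0.80 and -2.39, -2.45 and -1.82 and fell by 1.23. In both genes all treated mice lay below all vehicle mice, with adjusted p of 0.014 and 0.0161. Cldn14, a claudin that reduces cation flow, fell by 1.21 (SE 0.18, adjusted p = 0.0311), Cyp4f14, a leukotriene hydroxylase, by 1.30 (SE 0.21, adjusted p = 0.0381) and Lrmp by 1.38 (SE 0.19, adjusted p = 0.0212). The groups overlapped for Cyp4f14 and Lrmp and lay apart for Cldn14. Of these 9 calls, 8 were lost whichever mouse was left out and that of Ms4a18 in 2 of 3 leave-outs.

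Of 19 crypt stem cell genes 1 was called by limma, beside 0.965% of all genes tested. At unadjusted p under 0.05 there were 6 (31.6%, beside 9.99% of all genes). The called gene was Ascl2, a transcription factor of crypt base stem cells, at 3.92, 4.59 and 4.50 in vehicle and 3.16, 3.96 and 4.13 in calcitriol. It fell by 0.59 (SE 0.09, adjusted p = 0.0269) with overlapping groups, and the call was kept in 1 of 3 leave-outs (adjusted p up to 0.234). Lgr5, the receptor that marks these cells, was at 3.86, 3.32 and 3.44 and 3.55, 3.10 and 3.00, lower in each mouse, and its difference of -0.32 (SE 0.07, adjusted p = 0.113) did not pass. Smoc2, another stem cell marker, was at 2.98, 3.60 and 2.91 and 2.50, 2.07 and 1.99 and its difference of -0.98 (adjusted p = 0.0574) did not pass. None of 17 Wnt targets and regulators was called by limma (2 at unadjusted p under 0.05). Of these 3 lay above 0 and the median was -0.15, or 0.32 under median scaling, with Nkd1 at -2.08 (adjusted p = 0.113), Lef1 at -1.86 (adjusted p = 0.304) and Axin2 at 0.38 (adjusted p = 0.66). The growth regulators Myc and Ccnd1 differed by -0.40 (adjusted p = 0.735) and -0.15 (adjusted p = 0.642).

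Of 29 proliferation genes none was called by limma (1 at unadjusted p under 0.05), with a median of -0.06. Mki67, which marks dividing cells, was at 5.0, 5.62 and 5.63 in vehicle and 5.06, 5.48 and 5.66 in calcitriol, a difference of -0.01 (SE 0.07, adjusted p = 0.949), and the replication helicase genes Mcm5 and Mcm7 differed by -0.27 (adjusted p = 0.477) and -0.17 (adjusted p = 0.568). No call was made by limma among 24 cell cycle inhibitors and p53 targets (5 at unadjusted p under 0.05), where Cdkn1a, the inhibitor p21, differed by -0.24 (adjusted p = 0.564), Btg2 by -0.44 (adjusted p = 0.146) and Bbc3 by -0.26 (adjusted p = 0.271). Adhesion and tight junction genes (28 tested) had no call by limma either (4 at unadjusted p under 0.05), with the E-cadherin gene Cdh1 at -0.06 (SE 0.07, adjusted p = 0.744), Cdh17 at 0.25 (adjusted p = 0.375) and Cldn4 at -0.20 (adjusted p = 0.43).

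Absorptive colonocyte genes (26 tested) gave 1 rise and, with Ms4a18, 1 fall. Alpi, the intestinal alkaline phosphatase of the brush border, was at -1.01, -1.48 and -0.60 in vehicle and -0.01, -0.05 and 0.65 in calcitriol and rose by 1.23 (SE 0.15, adjusted p = 0.0131). The call was lost whichever mouse was left out (adjusted p up to 0.138) and without the block (0.306). The water channel gene Aqp8 differed by -1.12 (adjusted p = 0.0574), Aqp4 by -0.37 (adjusted p = 0.0642), the chloride exchanger gene Slc26a3 by -0.61 (adjusted p = 0.242), Krt20 by 0.34 (adjusted p = 0.319) and Car1 by 0.24 (adjusted p = 0.575). Of 22 BMP and TGF-beta genes 2 fell. Id2, an inhibitor of helix-loop-helix factors, fell by 0.74 (SE 0.10, adjusted p = 0.0161) with overlapping groups, a call kept in 1 of 3 leave-outs (adjusted p up to 0.163). Inhba, the activin A subunit, fell by 0.86 (SE 0.13, adjusted p = 0.0335, lost whichever mouse was left out), while Id3 and Tgfbi differed by 0.51 (adjusted p = 0.154) and -0.67 (adjusted p = 0.188). Gsta3, a glutathione transferase, was the 1 called of 27 Nrf2 and glutathione genes, at 4.33, 2.68 and 2.65 in vehicle and 3.13, 1.80 and 1.62 in calcitriol. It fell by 1.04 (SE 0.08, adjusted p = 0.00171), and the Nrf2 targets Nqo1 and Gstm1 differed by -0.44 (adjusted p = 0.0642) and -0.40 (adjusted p = 0.0786). Plaur, the urokinase receptor, fell by 0.53 (SE 0.07, adjusted p = 0.0193, lost whichever mouse was left out) among 21 regenerative and fetal-like genes, where Areg, a growth factor, differed by 0.24 (adjusted p = 0.347). None of 27 genes of endoplasmic reticulum stress and hypoxia was called by limma (3 at unadjusted p under 0.05), with Herpud1 at 0.44 (adjusted p = 0.0945) and Ankrd37 at -0.21 (adjusted p = 0.38).

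**Figure D3:**
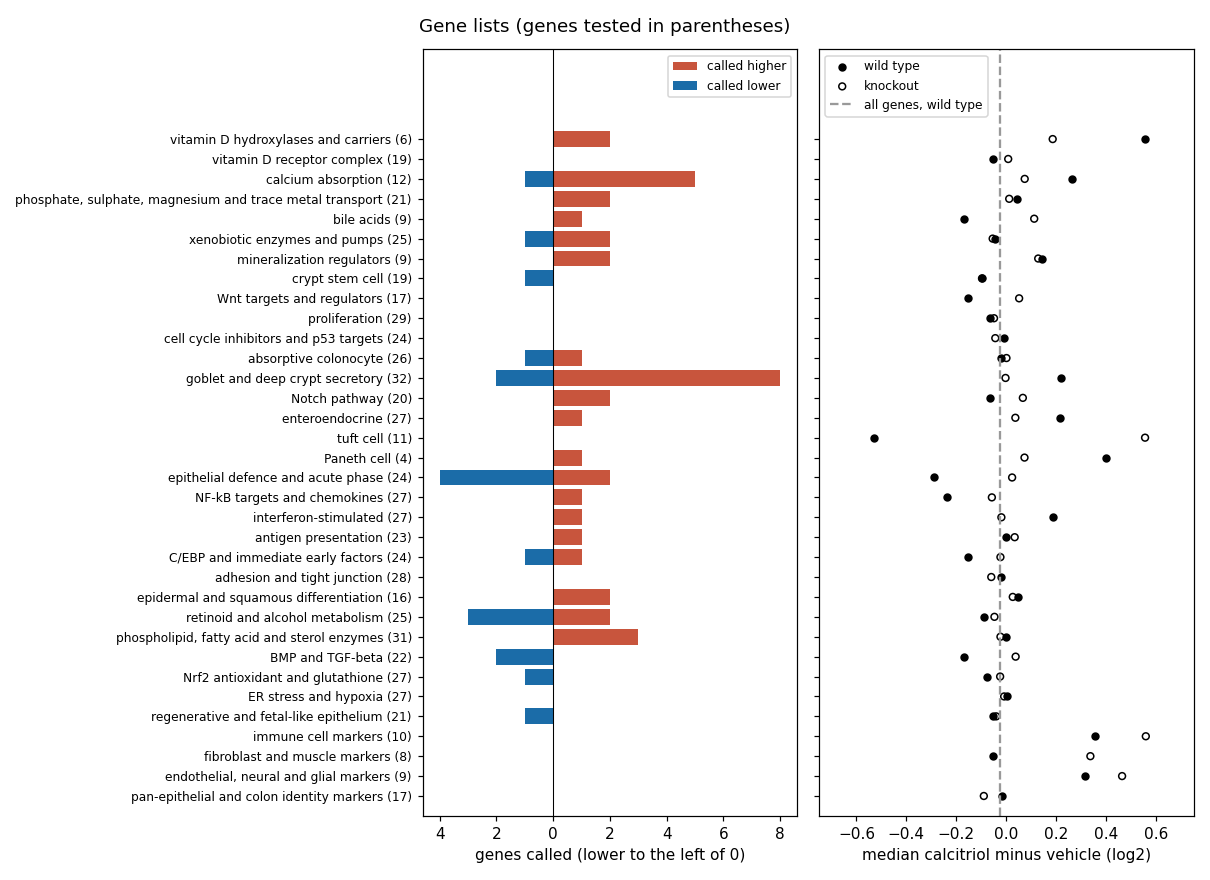
Left, the number of genes called higher (right of 0) and lower (left of 0) in each of 34 gene lists, with the number tested in parentheses. Right, the median calcitriol minus vehicle difference (log2) of each list in wild type and knockout, with a dashed line at the wild-type median of all genes, -0.0261. Goblet and deep crypt secretory genes have the most calls, 8 higher and 2 lower.

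The same treatment was measured in knockout cultures, where each vehicle array lay on another slide than its calcitriol partner. In these pairs slide and treatment cannot be told apart, which touches the knockout differences and the comparison of genotypes alike. No gene was called there by limma with mouse as a block or without it (1944 and 1395 at unadjusted p under 0.05). The wild-type comparison had 2423 and 1097 genes at unadjusted p under 0.05 in the same 2 fits. The 162 genes that rose in wild type had a median knockout difference of 0.02 and the 72 that fell had one of -0.06, with ranges of -0.56 to 1.30 and -0.48 to 0.55. Among the 20 largest rises with a symbol the mean knockout difference ran from -0.43 to 0.57, and among the 15 largest falls with a symbol from -0.37 to 0.55. Single knockout mice ranged more widely, from -1.04 for Cbln1 to 1.45 for Cyp24a1. AK017151, without a symbol, had one of 0.97, at 2.81, 1.59 and -1.49 by mouse. The test of the difference between the 2 effects itself called 58 genes (0.239%), and all 58 were among the 234, 53 higher (0.219%) and 5 lower (0.0206%) in wild type. The fit with slide and mouse called 64, 37 higher and 27 lower, and median scaling 235, 186 higher and 49 lower. Of the 20 largest rises 15 passed this test, and of the 15 largest falls 3 did. For S100g the effects differed by 7.37 (adjusted p = 7.7e-06), for Adh6a by 2.84 (adjusted p = 0.000615) and for Saa2 by -2.33 (adjusted p = 0.0152). Rises that did not pass it included Klk11 (adjusted p = 0.421), Mptx1 (0.166) and Cbln1 (0.135), so a difference between genotypes was not shown for these.

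**Figure D4:**
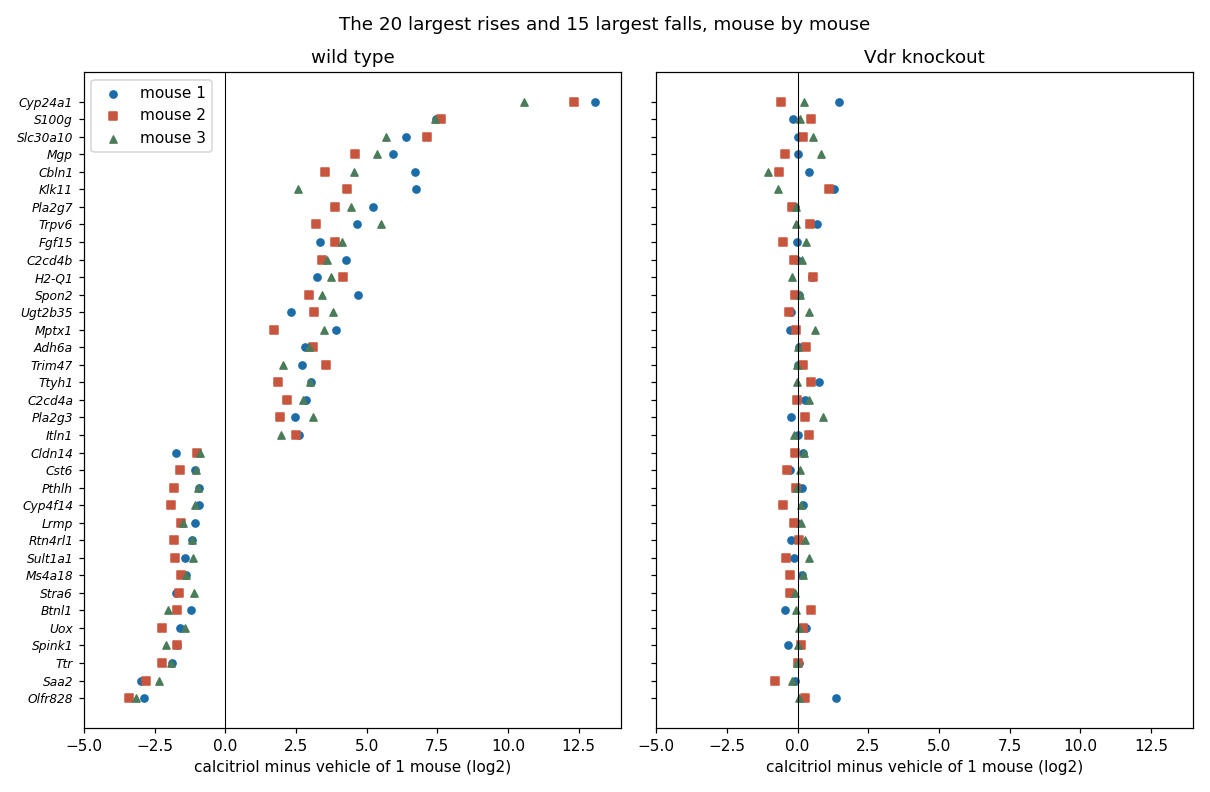
Calcitriol minus vehicle (log2) of each mouse for the 20 largest rises and 15 largest falls, wild type at left and Vdr knockout at right, 1 point a mouse. All wild-type points lie on the side of their gene's direction, which the choice of genes required. Knockout differences of single mice run from -1.04 (Cbln1) to 1.45 (Cyp24a1), and their means by gene lie between -0.43 and 0.57.

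Within 1 slide, in mouse 3, the differences of the 20 largest rises were 1.99 to 10.57 and those of the 15 largest falls were -3.17 to -0.88. These genes were chosen for the same sign in all 3 mice, so the direction in mouse 3 was fixed by the choice. In the fit with slide and mouse the effect is the difference between 1 pair of arrays, and its spread, on 2 residual degrees of freedom, comes from mice 1 and 2 of each genotype. There 16 of the 20 rises and 3 of the 15 falls were called, beside 116 of all 24246 genes (62 higher and 54 lower). Mouse 3 also entered the mean by which these genes were ranked, so a large difference in it was favoured by the choice. For mice 1 and 2 slide and treatment cannot be told apart.

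Several called genes lie next to each other. The search was made after the values were seen, over the order of tested genes in RefSeq. It found 13 neighbouring pairs in which both were called, and both moved the same way in all 13. Of 398 genes next to a called gene 25 were called (6.28%), against 203 of 14907 with a known place (1.36%). Some pairs are relatives whose probes may share signal, as Adh1 and Adh6a, Ugt2b34 and Ugt2b35, C2cd4b and C2cd4a, Tff3 and Tff2 (rises of 0.64 and 1.80, the second not called after normexp), Ctla2b and Ctla2a, and Gm3383 and Gm10406. The other 7 are unrelated by name. Among them Bcas1, a gene of the goblet list, lies beside Cyp24a1 on chromosome 2. On chromosome 11 Pla2g3, the inositol phosphatase gene Inpp5j and the selenoprotein gene Selenom form a run of 3 that rose by 2.50, 1.00 and 1.78. Cubn and Trdmt1 rose by 1.73 and 1.18, Pla2g7 and the brush border protease gene Mep1a by 4.52 and 0.91, and Sdr42e1 and Hsd17b2 by 0.75 and 0.67.

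The promoters of the genes that rose were searched for the receptor's paired half-sites. The windows are RefSeq's on GRCm38.p6, 250 bases before to 50 after each start, and the allowance of mismatches was chosen after the counts were seen. The half-site AGGTCA, its variant GGGTCA, the variant AGTTCA and the variant GGTTCA were sought on both strands as a direct pair 3 bases apart. No called gene had an exact pair, which 0.0252% of genes tested had. With up to 1 mismatch in the pair, 7 of 104 genes called higher with a promoter in the table had one (6.73%), none of 53 called lower and 1.61% of genes tested. With up to 2 the shares were 23.1%, 17.0% and 18.9%, close to each other. Cyp24a1 is not in the promoter table, and S100g had no pair with under 3 mismatches. The 7 windows are shown to make clear where the pairs lie, on the gene's own strand with the half-sites in capitals. In Slc39a8 and Ugt2b35 the pair reads on that strand, and in the other 5 on the opposite one.
Slc39a8: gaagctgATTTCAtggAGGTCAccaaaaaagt
Ugt2b35: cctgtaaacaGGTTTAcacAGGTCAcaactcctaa
Gm8909: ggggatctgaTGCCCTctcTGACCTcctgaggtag
Selenom: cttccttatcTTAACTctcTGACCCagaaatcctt
Slc12a8: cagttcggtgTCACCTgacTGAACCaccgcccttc
Tm4sf5: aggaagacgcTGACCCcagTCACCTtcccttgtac
Vstm5: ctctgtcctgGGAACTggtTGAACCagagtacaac

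The windows come from promoters at chr3:135825407-135825706 (Slc39a8, plus strand), chr5:87000610-87000909 (Ugt2b35, plus), chr17:36168488-36168787 (Gm8909, minus), chr11:3514434-3514733 (Selenom, plus), chr16:33517078-33517377 (Slc12a8, plus), chr11:70505024-70505323 (Tm4sf5, plus) and chr9:15238795-15239094 (Vstm5, plus). Counted from the start site, the pair began at base -243 in Slc39a8, -224 in Ugt2b35, -186 in Tm4sf5, -138 in Gm8909, -108 in Selenom and -18 in Slc12a8, and 14 after it in Vstm5. Beside Slc39a8 and Ugt2b35, described above, Gm8909 rose by 2.05, Selenom by 1.78, Tm4sf5, a membrane protein of the transmembrane 4 family, by 1.46, Vstm5 by 0.86 and the transporter gene Slc12a8 by 0.81. A match is a description of the sequence and does not show that the receptor binds there.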

How the data were processed

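Organoid RNA was hybridised, 100 ng of it labelled with Cy3, to 12 one-colour Agilent arrays in 4 groups of 3. The authors deposited linear spot intensities written by Feature Extraction 11.5.1.1, with background subtracted and nothing normalized between arrays, per the file headers, which name mm9 for the probe annotation. Across arrays the 75th percentile of signal ran from 580.6 to 790.5, and the number of arrays, 3 a group, limits the precision. No spot was saturated.

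Control spots and outlier flags were left out, log2 was taken, and each array's own 75th percentile was subtracted. Spots of 1 probe were averaged, and 163 probes with a missing value were dropped. Of 55681 probes 28026 were named through a RefSeq table on GRCm38.p6, used for symbols and gene order. A probe was kept where 1 group or more had it well above background on all 3 arrays, and the brightest probe stood for each of 24246 genes, 14907 of them with a symbol.

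The test was limma 3.58.1 in R 4.3.3, 2-sided, on all 12 arrays, with a fixed term for each mouse, 1 calcitriol effect per genotype, a variance trend and Benjamini-Hochberg adjustment at 0.05. The replicate number marks the animal, since each mouse's culture got both treatments, and deviations of the paired arrays correlated at 0.57, 0.32 and 0.32 in wild type and 0.26, 0.59 and 0.10 in knockout. The 3 cultures a group come from separate mice. On simulated data this fit recovered 10%, 58%, 70% and 98% of 50 genes changed by 0.5, 1, 2 and 4 (log2), with 9 false among 127 calls. Without the block it recovered 0%, 30%, 46% and 98%, with no false call among 87. The simulated arrays took their mouse levels and their spread from the fit with the block and held no slide effect. Their false calls therefore say nothing about calls made by slide.

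The comparison, the 34 lists (791 genes, 659 tested) and the named genes were chosen with earlier results of these data known. Named were the 20 largest rises and 15 largest falls among called genes with a symbol, the same sign in all 3 mice and all 3 arrays of the higher group above background, sex-linked Xist and Y genes aside. Called list members, up to 2 uncalled members a list and a fixed set were added. Some genes these rules chose are not reported here. No set test was run. Alternatives were no block, wild-type arrays only, slide as a block with and without mouse, 1 slide, each mouse left out, normexp, median or quantile scaling, no filter on dim probes, a floor, the mean of probes and no variance trend. The mean spot signal was not used here, so normexp (offset 50) took the deposited median intensity of spot and background. Where no array of the lower group had a gene above background, its fold is printed as "at least", against each array's lowest signal above background.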

Additional observations from a re-analysis of the deposited data

Results flagged for a closer look

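The calcitriol effect of 30 named genes differed between wild-type and knockout cultures by the test of the difference itself. The test was limma with Benjamini-Hochberg adjusted p under 0.05 over all genes. As every knockout pair crossed slides, slide and treatment cannot be told apart in these differences. The differences, wild type minus knockout on the log2 scale, were largest for Cyp24a1 (11.63), S100g (7.37), Slc30a10 (6.15), Mgp (5.16), Pla2g7 (4.63), Trpv6 (4.10), Fgf15 (3.87), C2cd4b (3.77), Spon2 (3.68), H2-Q1 (3.43) and Ugt2b35 (3.15). Next came Adh6a (2.84), Trim47 (2.72), C2cd4a (2.39), Cebpd (2.29), Itln1 (2.27), Gdpd5 (2.13), Atoh1 (2.00), Atp2b1 (1.76) and Cubn (1.73). Smaller ones were those of Best2 (1.68), Slc39a8 (1.63), Bcas1 (1.31), Adh1 (1.20), Neurog3 (1.09) and Ugt2b34 (0.92). Negative differences were those of Gsta3 (-0.98), Spink1 (-1.77), Ttr (-2.03) and Saa2 (-2.33). Adjusted p ran from 7.7e-06 for S100g to 0.0464 for Trim47, and the knockout effects themselves from -0.37 for Saa2 to 0.37 for Trpv6, none of which was called.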

How the results depend on the processing

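All 70 named calls kept their direction under each alternative except Egr1 under median scaling and Bace2 on 1 slide, but the number of calls changed with how mouse, slide and variance were handled. Without the pairing by mouse, that is with no replicate block, 39 genes were called, 37 higher and 2 lower, with 19 of the 70 named calls and 7 calls of the difference between genotypes in place of 234, 162, 72, 70 and 58. With slide and replicate block there were 116 calls (62 higher), 33 named, 30 of the 55 called list genes, and 64 for the difference (37 higher, 27 lower, in place of 53 and 5). With slide as a block and no replicate block there were 6 (6 higher, 0 lower; 561 genes had an unadjusted p under 0.05), 4 named and 1 for the difference between genotypes. On the largest slide alone, where wild-type vehicle is 1 array whose spread is taken from the other groups, there were 3 (3 higher, 0 lower; 1358 at unadjusted p under 0.05), 2 named and 2 for the difference. Leaving out 1 mouse gave 44 to 87 calls (44 without mouse 2, 67 without mouse 1, 87 without mouse 3), 40 to 71 higher, 4 to 16 lower, 27 to 40 named and 20 to 30 for the difference. Median scaling gave 647 (534 higher, 113 lower), 38 named and 235 for the difference, and no variance trend 81 (65 and 16), 36 and 12. The wild-type arrays alone, normexp, quantile normalization, no filter, a floor and the mean of probes gave 206 to 266 calls. The cause of these differences was not tested.

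Reversed directions were, under median scaling, Egr1 (0.013), Aqp4 (0.10), Cldn4 (0.27), H2-Ab1 (0.073), Klf4 (0.21), Ier2 (0.14), Btg2 (0.026), Bbc3 (0.21), Lgr5 (0.15), Ankrd37 (0.26), Fn1 (0.17), Relb (0.030), Jag1 (0.075), Nqo1 (0.026), Gstm1 (0.071), Mcm5 (0.20), Mcm7 (0.30), Rxra (0.24), Myc (0.074), Ccnd1 (0.32), Cdkn1a (0.23), Mki67 (0.46), Cdh1 (0.41) and Hes1 (0.40), where the median of all genes was 0.44. On the largest slide alone they were Bace2 (0.18), Aqp4 (0.12), Cldn4 (0.22), Btg2 (0.10), Bbc3 (0.11), Sprr1a (0.37), Tagln (-0.50), Ccl6 (0.055), Fgf23 (-0.16), Lyz1 (0.29), Cyp2r1 (-0.17), Cdkn1a (0.048), Car1 (-0.0076), Hes1 (0.011) and Cyp3a11 (-0.080). With slide and replicate block they were Sox10 (-0.073), Tagln (-0.30), Cd4 (-0.11), Fgf23 (-0.21), Ptgs1 (0.094), Cyp2r1 (-0.34), Axin2 (-0.18), Myc (0.19), Ccnd1 (0.13), Mki67 (0.031) and Cyp3a11 (-0.075), and with slide alone H2-Ab1 (0.054), Tagln (-0.32), Fgf23 (-0.11), Cyp2r1 (-0.11), Axin2 (-0.029) and Cyp3a11 (-0.072). Normexp turned Cyp27b1 (-0.15) and Cyp3a11 (-0.12), a floor Cyp27b1 (-0.38), and the mean of probes Axin2 (-0.059) and Mki67 (0.021). With 1 mouse left out Cyp3a11 ran from -0.45 to 1.16, Mki67 from -0.052 to 0.046 and Hes1 from -0.17 to 0.11. Of all these Egr1 and Bace2 had been called.

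Signal over background limits the sizes given for dim genes. The vehicle arrays of mice 2 and 3 had the highest limits of detection, 35.3 and 29.2 in signal, against 12.7 to 14.9 on the other 4 wild-type arrays. The sizes of rises from vehicle levels near those limits (Cyp24a1, Slc30a10, Mgp, Cbln1, Klk11, Pla2g7, Ttyh1) move with the background correction, as for Cyp24a1, which rose by 10.52 with a floor and by 9.02 after normexp.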
